A study of Homo sapiens with 8 samples.

Results

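The minor spliceosome snRNAs U11, U12, U4atac and U6atac were followed in small RNA libraries of MEC-1, an established B-cell line from chronic lymphocytic leukaemia, and of the exosomes that these cells released. The members are the features RNU11, RNU12, RNU4ATAC and RNU6ATAC, chosen by symbol: 4 of the 2709 non-coding RNA features in each deposited table. There were 5 exosome libraries and 3 cell libraries, with no treatment named in the labels, all of MEC-1 grown in bioreactors in medium with 10% fetal calf serum. The serum had been freed of its own exosomes, except in the upper medium compartment. Exosomes were pelleted at 100000 g, with a separation on a 20% Optiprep cushion, and 30 ng of RNA under 200 nt from exosomes or cells went into each library. The comparison asked which small RNAs exosomes held relative to their parental cells. All libraries come from 1 line. Nothing used here states that replicates were separate cultures, and the p-values then reflect no more than the scatter among these libraries, part of which may be technical. In bulk libraries, more vesicles with an RNA and more copies of it per vesicle cannot be told apart.

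Most introns are removed by the major spliceosome, built on the snRNAs U1, U2, U4, U5 and U6. A small class of introns, the U12-type introns, is removed by the minor spliceosome, in which U11, U12, U4atac and U6atac stand in for U1, U2, U4 and U6, and U5 is shared. U11 and U12 act as one particle that recognises the 5' splice site and the branch site, and U4atac brings in U6atac paired to it. U11, U12 and U4atac pass through the cytoplasm to receive their Sm protein ring before they return to the nucleus, while U6atac, a product of RNA polymerase III, carries LSm proteins and is known for its rapid turnover.

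The 4 snRNAs are shown because each carries a different stretch that pairs in splicing, and because their lengths decide what the deposited counts cover. The sequences are the snRNA transcripts of GENCODE release 29, written as DNA. Capitals mark, in RNU11, the letters AAAGG, complementary to the conserved end of the U12-type 5' splice site. In RNU12 they mark TAAGGAA, complementary to the branch site, and in RNU4ATAC and RNU6ATAC the longest run in which these 2 RNAs are complementary to each other.
RNU11: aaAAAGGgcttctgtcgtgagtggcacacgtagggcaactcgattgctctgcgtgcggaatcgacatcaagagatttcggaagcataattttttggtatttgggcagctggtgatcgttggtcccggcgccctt
RNU12: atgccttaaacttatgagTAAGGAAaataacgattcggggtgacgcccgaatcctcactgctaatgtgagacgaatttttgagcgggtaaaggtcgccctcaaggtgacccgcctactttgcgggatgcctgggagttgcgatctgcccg
RNU4ATAC: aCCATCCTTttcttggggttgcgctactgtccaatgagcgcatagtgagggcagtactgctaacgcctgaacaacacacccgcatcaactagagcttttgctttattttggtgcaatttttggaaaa
RNU6ATAC: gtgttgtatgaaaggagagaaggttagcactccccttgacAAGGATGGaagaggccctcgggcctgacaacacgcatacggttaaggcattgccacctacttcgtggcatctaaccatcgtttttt
The capitals lie at positions 3 to 7 of RNU11, 19 to 25 of RNU12, 2 to 9 of RNU4ATAC and 41 to 48 of RNU6ATAC, counted from the 5' end. AAAGG also occurs in RNU6ATAC, from position 11, and in RNU12, from position 89, and TAAGGAA shares the letters AAGG with that motif. On the transcript strand, AAAGG occurs in the first 30 bases of 3.50% of the 206694 GENCODE transcripts and TAAGGAA in 0.139%. A stretch of A, 5 or 6 T and G, the form of an Sm binding site, lies at positions 88 to 95 of RNU11, 75 to 81 of RNU12 and 116 to 122 of RNU4ATAC, and RNU6ATAC holds none. RNU12 and RNU6ATAC share a complementary run of 9 bases, longer than the 8 of RNU4ATAC with RNU6ATAC, so run length alone does not single out the known duplex.

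In GRCh37 coordinates of the files, RNU11 lies at chr1:28975112-28975245 on the plus strand, RNU4ATAC at chr2:122288457-122288583 on the plus strand and RNU6ATAC at chr9:137029561-137029686 on the minus strand. Their counted lengths of 134, 127 and 126 nt equal those of the snRNAs printed above. The RNU12 feature, at chr22:43011250-43011913 on the plus strand, is 664 nt long, whereas the U12 snRNA has 150 nt. The other 514 nt of the feature extend past the 3' end of the snRNA. GENCODE release 29 has a lincRNA model of 664 nt, Z93241.1, with the same start as RNU12, so the RNU12 counts may include reads from outside the snRNA. RNU11 too shares its start and strand with a lincRNA model, AL360012.1, of 131 nt, and LINC01715 lies 19 nt away on the same strand. RNU4ATAC lies within the span of CLASP1, on the opposite strand, and of AC012447.1, on the same strand, outside the exons of both. RefSeq names 41 pseudogenes of RNU6ATAC, 17 of RNU4ATAC, 5 of RNU11 and 1 of RNU12. None of them has an entry in the tables, and how reads that match several copies were counted is not given in the sources used here.

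Total counts ran from 23353820 to 32436286 for exosomes and from 25675636 to 57323598 for cells. The 4 snRNA features together took between 0.0622% and 0.193% of all exosome reads, but between 0.0194% and 0.0337% of all cell reads. Nearly all of these reads were of RNU11 and RNU12. RNU4ATAC held at most 0.874% of them in exosomes and 1.92% in cells, and RNU6ATAC at most 0.294% and 1.94%. Cell 2 and exosome 5 stood apart in scaling, with TMM factors (edgeR's correction for library composition) of 0.552 and 0.524, against 0.905 to 1.46 in the other libraries. Of the 6 miRNAs listed as marks of white blood cells, 3 had rows, and together they held 92.3 to 608 RPM (reads relative to the library total) in cells and 332 to 866 in exosomes. MIR122, the liver mark, held 0.384 to 1.91 RPM in cells and 24.0 to 160 in exosomes. The 2 red cell and platelet marks together held 17.5 to 29.2 RPM in cells and 57.3 to 142 in exosomes, and the 2 stroma marks 0.441 to 1.71 and 4.10 to 39.7. Myeloid, epithelial, muscle and neural marks overlapped between the groups or, for muscle, stayed under 1 RPM. The part of these RNAs in the results was not tested.

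RNU11, the partner of the 5' splice site, was the one minor snRNA called higher in exosomes, about 8-fold, and the other 3 were not called in either direction. Of all 1178 features tested, 20.7% were called higher and 22.3% lower, so 1 call among 4 members is close to the background, and the result is about RNU11 rather than the group. The median log2 fold change (exosome over cell) of the 4 members was 0.60, beside -0.09 for all features tested.

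RNU11 was counted 9655, 5967, 9740, 21832 and 10338 times in exosomes 1 to 5 and 1373, 1205 and 3963 times in cells 1 to 3. As CPM, counts relative to the TMM-scaled library total, this gave 296, 170, 213, 640 and 723 in the exosome libraries and 37.7, 40.1 and 76.4 in the cell libraries. Exosomes 4 and 5 were highest, and the lowest exosome library was above the highest cell library. Of all features tested, 41.7% separated the groups in this way, 21.6% with exosomes higher and 20.1% with exosomes lower. RNU11 averaged 409 ± 255 CPM (SD, n = 5) in exosomes and 51.4 ± 21.7 (SD, n = 3) in cells, a 7.95-fold difference (log2 2.99, SE 0.68, edgeR quasi-likelihood adjusted p = 0.00239). Among the features tested, 10.4% had a larger log2 fold change. The log2 value was 3.74 without cell 3, and the call held without exosome 5 and cell 2 together (log2 2.50, adjusted p = 0.0146). With no TMM factor, RNU11 stood at 358, 185, 300.3, 935 and 378 RPM in the exosome libraries and 53.5, 22.1 and 69.1 in the cell libraries. Exosomes 4 and 5 were the highest libraries on both scales, and the groups stayed apart on both. Exosome 5 stood above exosome 4 only with the TMM factor and was close to exosome 1 without it.

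**Figure D1:**
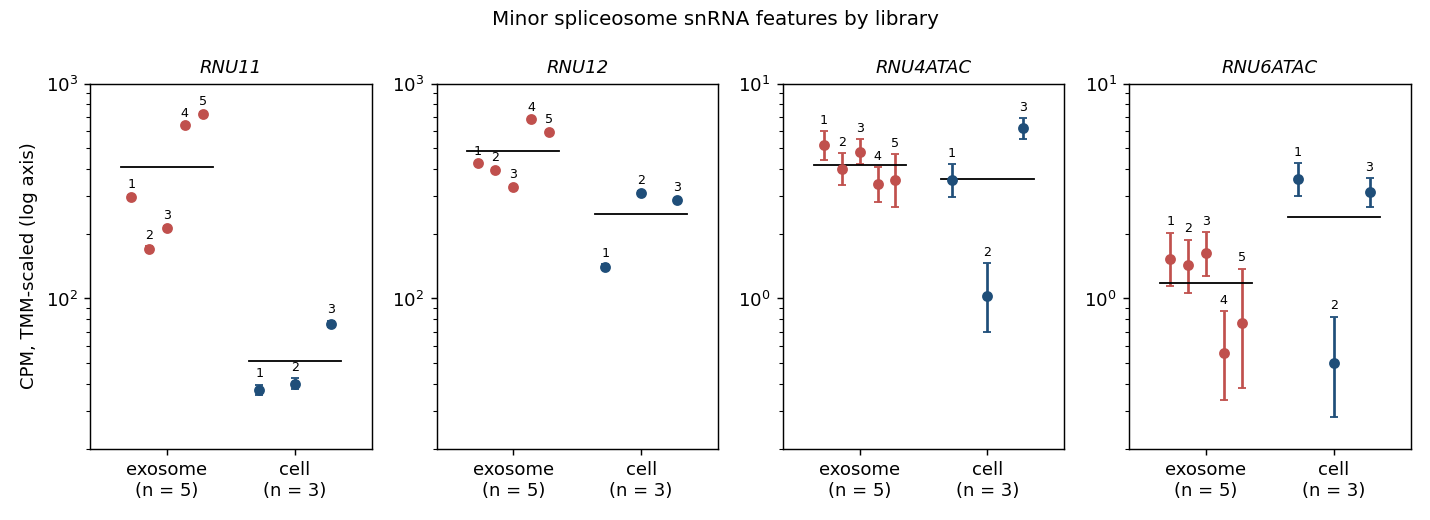
TMM-scaled CPM (log axes, 2 ranges) of the 4 minor snRNA features in each library, with library numbers, 95% exact Poisson intervals for counting error and the group mean as a line. RNU11 and RNU12 separate the groups, at 170 against 76.4 CPM and 332 against 311 CPM at their nearest libraries, while RNU4ATAC and RNU6ATAC overlap.

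RNU12, the partner of the branch site, was counted 13864, 13930, 15152, 23218 and 8508 times in exosomes 1 to 5 and 5130, 9339 and 14898 times in cells 1 to 3. The CPM values were 425, 397, 332, 681 and 595 in exosomes and 141, 311 and 287 in cells. Every exosome library was above every cell library, with exosome 3 and cell 2 close together and cell 1 well below the rest. RNU12 averaged 486 ± 146 CPM in exosomes and 246 ± 92.1 in cells (log2 0.98, SE 0.53), and this difference was not called (edgeR adjusted p = 0.143). It was called when only features with at least 50 counts in at least 3 libraries were tested (log2 1.41, edgeR adjusted p = 0.0391). In that setting 234 of all 863 features were called higher, and the median log2 fold change was 0.12 instead of -0.09. All values of RNU12 refer to the 664 nt feature.

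RNU4ATAC, which holds U6atac inactive until the spliceosome is assembled, was counted far less often: 168, 141, 220, 116 and 51 times in exosomes 1 to 5 and 130, 31 and 321 times in cells 1 to 3. Its CPM values were 5.16, 4.02, 4.82, 3.40 and 3.57 in exosomes and 3.57, 1.03 and 6.19 in cells. On this scale the cell libraries enclosed all the exosome libraries, with cell 2 lowest and cell 3 highest of the 8. With no TMM factor, exosomes 1 and 3 (6.23 and 6.78 RPM) were above cell 3 (5.60), and cell 2 (0.569) was still lowest. The means were 4.19 ± 0.769 CPM in exosomes and 3.59 ± 2.58 in cells (log2 0.22, SE 0.59, edgeR adjusted p = 0.79). The sign depended on cell 2, without which the log2 value was -0.29.

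RNU6ATAC, the catalytic partner that takes the place of U11 at the 5' splice site, was counted 50, 50, 74, 19 and 11 times in exosomes 1 to 5 and 131, 15 and 162 times in cells 1 to 3. The CPM values were 1.53, 1.43, 1.62, 0.557 and 0.769 in exosomes and 3.59, 0.499 and 3.12 in cells. Cells 1 and 3 lay above all exosome libraries and cell 2 below them. With so few reads, the 95% Poisson interval of exosome 5 ran from 0.384 to 1.38 CPM and that of cell 2 from 0.279 to 0.823. RNU6ATAC averaged 1.18 ± 0.484 CPM in exosomes and 2.41 ± 1.67 in cells (log2 -1.02, SE 0.70, edgeR adjusted p = 0.256). Without cell 2 the log2 value was -1.59 and the adjusted p 0.0627, still not called.

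Levels between the snRNAs were compared as CPM per 100 nt of counted length. In cells, RNU11 stood at 38.3 ± 16.2 and RNU12 at 37.1 ± 13.9, within each other's spread. RNU4ATAC followed at 2.83 ± 2.03 and RNU6ATAC at 1.91 ± 1.32, and these 2 also overlapped. In exosomes the order was RNU11 at 305 ± 190, RNU12 at 73.2 ± 22.0, RNU4ATAC at 3.30 ± 0.606 and RNU6ATAC at 0.938 ± 0.384. On this scale the ranges of neighbours in that order did not overlap in exosomes: the lowest RNU11 value was 127 and the highest RNU12 value 103, and the lowest RNU4ATAC value was 2.68 and the highest RNU6ATAC value 1.29. The place of RNU12 depends on where its reads lie. If all of them came from the 150 nt of the snRNA, its level would be 324 ± 97.3 CPM per 100 nt in exosomes, overlapping RNU11, and 164 ± 61.4 in cells, above RNU11 in every cell library.

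A ratio between features of the same library does not depend on the scaling factor. RNU11 was counted 0.696, 0.428, 0.643, 0.940 and 1.22 times as often as RNU12 in exosomes 1 to 5 and 0.268, 0.129 and 0.266 times as often in cells 1 to 3. The mean log2 ratio was -0.44 ± 0.571 in exosomes and -2.26 ± 0.605 in cells, a difference of 1.82, and no exosome library overlapped the cell libraries. RNU11 over RNU4ATAC differed by 2.29 and RNU11 over RNU6ATAC by 3.53 on the log2 scale, again with no overlap, although cell 2 (log2 5.26) came close to exosome 2 (5.40) for RNU11 over RNU4ATAC. For each of these ratios the two-sided exact permutation test gave p = 0.0357, which is the lowest value possible with 8 libraries split this way, and adjusting over the 10 ratios tested gave 0.0595. No ratio therefore passed after adjustment, and none could have passed unless more of the 10 ratios had reached this lowest value.

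The ratio of U4atac to U6atac, which work as a pair, separated the groups but did not pass after adjustment. RNU4ATAC was counted 3.34, 2.80, 2.96, 5.97 and 4.48 times as often as RNU6ATAC in exosomes 1 to 5 and 0.992, 2.03 and 1.98 times as often in cells 1 to 3. The lowest exosome ratio was above the highest cell ratio (log2 difference 1.24, exact permutation p = 0.0357, adjusted p = 0.0595). These nearest libraries rest on few reads of RNU4ATAC and RNU6ATAC, 141 and 50 in exosome 2 and 31 and 15 in cell 2. The counting error of the ratios was not computed. Exosomes 4 and 5, which had the highest RNU11 levels, also had the lowest RNU6ATAC levels among the exosome libraries. RNU11 was counted 1120 and 899 times as often as RNU6ATAC in those libraries, and 191, 118 and 131 times as often in exosomes 1 to 3. RNU12 over RNU4ATAC (difference 0.47, exact permutation p = 0.571, adjusted p = 0.571) and RNU12 over RNU6ATAC (1.71, exact permutation p = 0.143, adjusted p = 0.204) overlapped between the groups, through cell 2 in both.

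**Figure D2:**
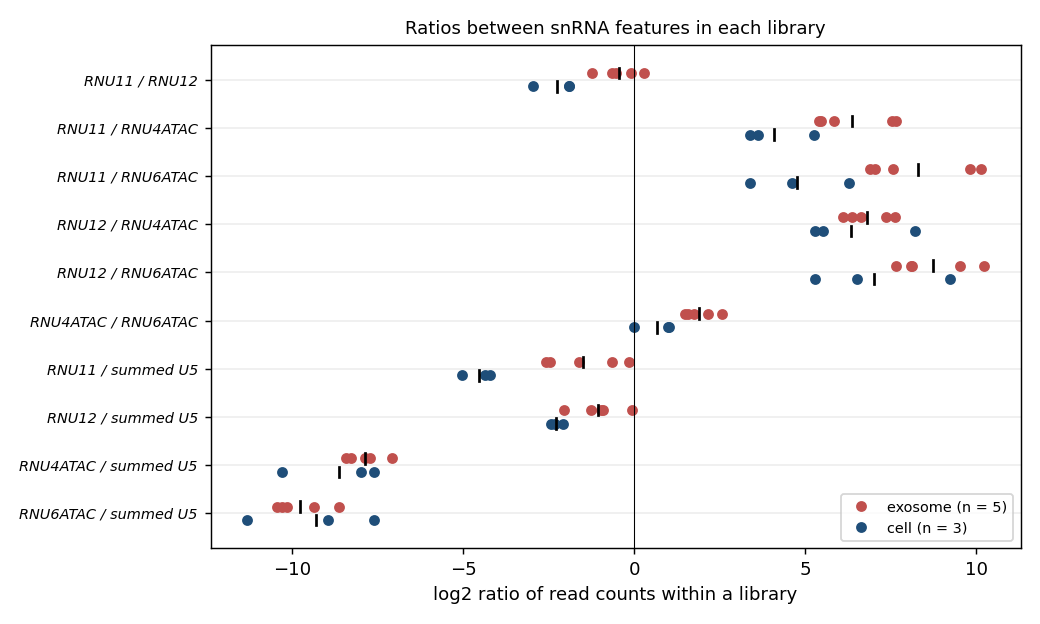
Log2 ratios of read counts between features of the same library (0.5 counts added to each), exosome libraries in red, cell libraries in blue, group means as black ticks. In 6 of the 10 ratios the groups do not overlap. These are the 3 with RNU11 over another member, RNU4ATAC over RNU6ATAC, and RNU11 and RNU12 over summed U5. They share members and are not independent. Of all single features tested, 41.7% separated the groups in CPM, and the share among ratios of other features was not computed.

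U5, the snRNA that both spliceosomes use, was taken as a reference inside each library. The sum of the 5 U5 features lay between 16160 and 57444 reads for exosomes and between 25681 and 80794 for cells. It was not steady, at 592 to 2130 RPM in exosomes and 722 to 1409 RPM in cells, and most of it was RNU5E-1. RNU11 reads amounted to 0.168, 0.180, 0.328, 0.893 and 0.640 of the U5 reads in exosomes 1 to 5 and to 0.0535, 0.0306 and 0.0491 in cells 1 to 3, with a log2 difference of 3.04. RNU12 reads amounted to 0.241, 0.420, 0.510, 0.950 and 0.526 of the U5 reads in exosomes and to 0.1998, 0.237 and 0.184 in cells (difference 1.22). Neither ratio overlapped between groups, and both had an exact permutation p of 0.0357 and an adjusted p of 0.0595. For RNU12 the gap between exosome 1 and cell 2 was narrow. With RNU5E-1, the most abundant U5 feature, in place of the sum, exosome 1 lay below cells 1 and 3. The groups then overlapped (difference 1.16, exact permutation p = 0.107, adjusted p = 0.179). RNU4ATAC over U5 (difference 0.75, exact permutation p = 0.429, adjusted p = 0.536) and RNU6ATAC over U5 (-0.49, exact permutation p = 0.571, adjusted p = 0.571) overlapped.

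Among the snRNAs of the major spliceosome, 1 of 23 tested features was called higher and 7 lower, with a median log2 fold change of -0.22 and 43.0% of all features called in either direction. The counts of 4 genes, RNU1-1 to RNU1-4, and of RNVU1-18 were nearly the same in every library. So were those of RNVU1-7 and RNVU1-9, and those of RNVU1-1 and RNVU1-10, both among the features called lower. The U1 features are therefore not independent, and neither are their calls. The counterpart of U11 is U1, whose most abundant feature, RNVU1-18, averaged 90.5 ± 8.08 CPM in exosomes and 105 ± 65.4 in cells and was not called (log2 -0.22). The U1 variant RNVU1-17 was the one major snRNA feature called higher (log2 2.43, SE 0.72, edgeR adjusted p = 0.013), a call lost without cell 1 (log2 2.04) or cell 2 (log2 2.01) and without exosome 5 and cell 2 together (log2 1.84). Lower were the U1 variants RNVU1-1 (-1.44), RNVU1-10 (-1.43), RNVU1-6 (-2.82), RNVU1-14 (-2.74), RNVU1-15 (-3.57) and RNVU1-16 (-3.22), and the U5 gene RNU5F-1 (-1.90). Few exosome reads lay under RNVU1-6, RNVU1-14, RNVU1-15 and RNVU1-16, with mean counts of 5.4, 17, 5 and 4.2. The calls of RNVU1-1 and RNVU1-10 were lost without any 1 library other than cell 2, with log2 values of -0.38 and -0.37 without cell 3. RNVU1-6 was lost without exosome 3 (-2.34), cell 1 (-2.60) or cell 3 (-2.52), RNVU1-14 without exosome 4 (-2.07) or cell 2 (-1.49), and RNU5F-1 without exosome 3 (-1.55) or cell 3 (-1.15). The U4 feature RNU4-1 (log2 -0.43) and RNU5E-1 (-0.09) were not called. For U2, the counterpart of U12, no feature was found under the symbol RNU2, alone or with a dash and number. None of the 5 U6 features had enough reads to be tested.

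**Figure D3:**
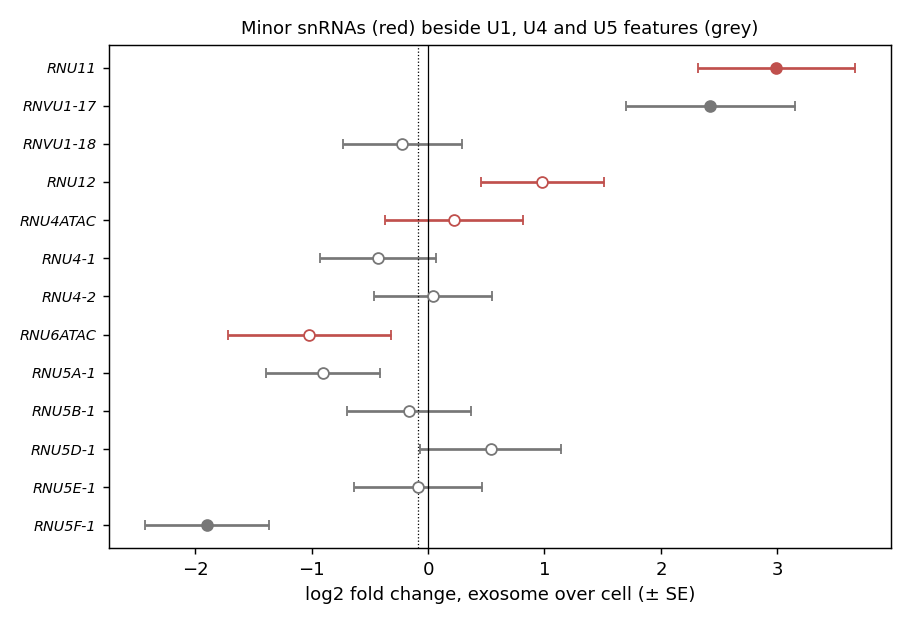
Log2 fold change (exosome over cell, with its SE) of the 4 minor snRNA features in red. Selected U1, U4 and U5 features are in grey, and not every tested feature is drawn. Of the 16 U1 features tested, 1 was called higher and 6 lower, the latter with log2 values from -1.43 to -3.57. Filled points passed an adjusted p under 0.05; the dotted line is the median of all 1178 features, -0.09. RNU11 (2.99) and RNVU1-17 (2.43) lie to the right of the others.

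The small Cajal body RNAs guide the modification of spliceosomal snRNAs. Of the 18 tested, 7 were called lower and 1, SCARNA7, higher (log2 1.83), with a median of -1.33, beside 22.3% lower and 20.7% higher among all features. The call of SCARNA7 was lost without cell 1. Of 8 other nuclear RNAs measured, 3 were called by edgeR, all lower, beside 43.0% of all features called in either direction. RN7SK, which restrains transcription elongation, stood at -5.39, SNORD118 (U8), needed to process rRNA, at -2.10, and SNORD13 at -1.84. Without cell 3 the calls of SNORD118 (-1.37) and SNORD13 (-0.49) were lost, and that of SNORD13 also without exosome 1 (-1.69) or exosome 4 (-1.36). RNU7-1, the snRNA that processes histone mRNAs and also passes through the cytoplasm for assembly, was not called (314 ± 225 against 212 ± 63.1 CPM, log2 0.57). The U3 genes SNORD3A (0.20), SNORD3C (0.32) and SNORD3B-1 (-0.95) and the telomerase RNA TERC (0.21) were not called either. Of the cytoplasmic Y and 7SL RNAs, 7 of 7 were called higher, with a median of 3.22, and RNU11 lay within their range of 2.12 to 4.71.

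The likeness of patterns was measured as the root mean square difference in log2 CPM over the 8 libraries, after each feature was centred on its own mean. For RNU11 the nearest of 455 other features with a symbol and a mean of at least 100 counts were RNVU1-17 (0.38), AC006129.4 (0.48) and FTX (0.55), beside a median of 2.10 over all 455. RNU12 had MIR365B (0.42), MIR766 (0.48) and SNORA6 (0.49) nearest, beside a median of 1.37. RNU4ATAC had MIR191 (0.28), MIRLET7G (0.29) and MT-TC (0.36) nearest, beside a median of 1.32. RNU6ATAC, set against 456 features, had MIR26A1 (0.27), MIR26A2 (0.27) and SNHG8 (0.37) nearest, beside a median of 1.35. Between the members themselves, RNU4ATAC and RNU6ATAC were nearest to each other (0.73), and RNU11 and RNU6ATAC farthest apart (2.14). RNU11 and RNU12, the snRNAs of one particle, differed by 1.01. No member was among the 3 nearest features of another, but RNU6ATAC, with a mean under 100 counts, could not be listed as one.

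Across the 19 alternative settings, RNU11 was called higher in each, with log2 values from 2.21 to 3.74. RNU12 stayed positive in all of them, from 0.61 to 1.498, and was called in 1. RNU4ATAC, from -0.29 to 1.13, and RNU6ATAC, from -1.59 to -0.24, were called in none.

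**Figure D4:**
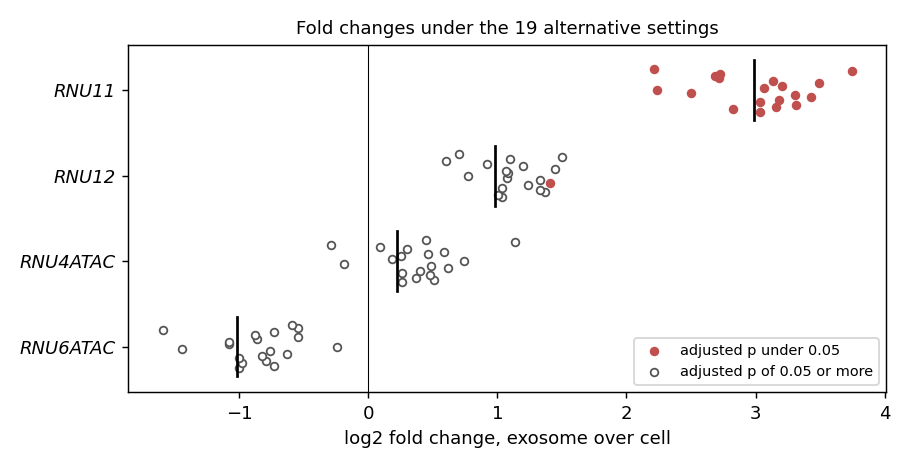
Log2 fold change (exosome over cell) of the 4 minor snRNA features under the 19 alternative settings, one point each, filled where the adjusted p was under 0.05, with the reported value as a black line. RNU11 is filled throughout (2.21 to 3.74), RNU12 once (1.41), RNU4ATAC and RNU6ATAC never.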

How the data were processed

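The authors deposited raw read counts per feature for each library, per the file headers, with coordinates and counted lengths; the build, GRCh37, is named in the submitters' processing notes. Tools named in the submitters' processing notes are cutadapt 1.1 and STAR, then featureCounts, and DESeq2 1.8.2. How strand, overlaps and multi-mapping reads were handled is not given in the sources used here. Without strand, reads of antisense genes cannot be told apart. Groups and replicate numbers come from the sample titles. Exosome and cell libraries were compared over all features with edgeR 4.0.16 in R 4.3.3 (quasi-likelihood test, TMM scaling, default filter with a minimum of 10 counts, Benjamini-Hochberg adjustment, called at an adjusted p under 0.05). The SE is the log2 fold change divided by the square root of F. On simulated data for this comparison (1147 features, 951 of them unchanged), 77.6% of log2 changes of 3 and 33.3% of changes of 2 were called. Changes of 1, about the size of those of RNU12 and RNU6ATAC, were called in 0%. In the data, 507 of 1178 features were called. The adjustment is stricter where fewer features change, so the simulation may understate what could be called here. Ratios used counts plus 0.5 and an exact permutation test over 56 splits (scipy 1.17.1), adjusted over 10 ratios. Alternatives were DESeq2 1.42.0, limma-voom (limma 3.58.1), 3 other scalings, 2 filters, removal of rRNA features and of libraries, another pseudocount or U5 reference, and a replicate block. Poisson intervals (95%) cover counting error only; no molecular identifiers are named in the protocols. Libraries of a group differed beyond counting noise, so none was treated as 1 library deposited again; whether they are technical repeats of 1 RNA was not tested. Named genes are the 4 members, the most abundant feature and all called features of each major snRNA role, all measured nuclear RNAs on a list, and the 3 features nearest in pattern to each member; SCARNA7 was named after its value was seen. The members, lists and tests were chosen with earlier results of these data known. Sequences, and the overlap of gene models, are from GENCODE release 29 (GRCh38), and pseudogene names from RefSeq; all 4 members were matched by symbol.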

Additional observations from a re-analysis of the deposited data

How the results depend on the processing

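RNU11 kept its call under every setting run: DESeq2, limma-voom, 3 other scalings, 2 filters, removal of the rRNA features, of each library and of exosome 5 with cell 2, and the replicate block. Leaving out 1 library gave log2 values of 2.68 to 3.74 for RNU11, 0.61 to 1.498 for RNU12, -0.29 to 1.13 for RNU4ATAC and -1.59 to -0.54 for RNU6ATAC. RNU4ATAC turned to -0.29 without cell 2 and -0.19 without exosome 5 and cell 2; the cause was not tested. With at least 50 counts in 3 libraries, RNU12 passed (log2 1.41) and 2 members were called higher, 2 major snRNA features lower and 2 small Cajal body RNAs higher. Of all 863 features tested in that setting, 234 were higher and 194 lower, and their median moved up to 0.12. Scaling moved the median of all features from -0.09 to 0.19 with total counts and 0.25 with upper quartiles, and no member changed sign with it. Leaving out 1 library gave 0 to 1 major snRNA features higher and 3 to 7 lower, 0 to 1 small Cajal body RNAs higher and 6 to 8 lower, 0 other nuclear RNAs higher and 1 to 3 lower, and 179 to 272 features higher and 189 to 261 lower of all tested.

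Exosomes and cells share replicate numbers 1 to 3, and the series' design says that 3 exosome samples had paired cells, but no source says which. Deviations of same-numbered libraries correlated at 0.102, -0.043 and 0.087, and those of different-numbered libraries at -0.158 to 0.055. With 3 libraries per group, each centred on its group mean, these values cannot decide whether the numbers mark a pairing. The main fit therefore took no pairing from them. With the replicate block on libraries 1 to 3, RNU11 was at 2.24 (adjusted p = 0.0223), RNU12 at 0.77, RNU4ATAC at 0.74 and RNU6ATAC at -0.24; the same 6 libraries without it, a setting added after the data were seen, gave 2.21 for RNU11. With the block, 0 major snRNA features were higher and 3 lower, 1 other nuclear RNA was lower, and 162 features were higher and 171 lower; without it on these 6 libraries, 0 major snRNA features were higher. Total count scaling left 3 major snRNA features lower, and removing exosome 5 and cell 2 left 0 higher. In the block the ratio differences were 1.46 for RNU11 over RNU12 and 0.93 for RNU4ATAC over RNU6ATAC, with a smallest possible exact p of 0.25.

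Leaving out 1 library gave ratio differences of 1.47 to 2.01 for RNU11 over RNU12, 1.94 to 2.87 for RNU11 over RNU4ATAC, 2.84 to 4.29 for RNU11 over RNU6ATAC, 0.90 to 1.42 for RNU4ATAC over RNU6ATAC, 2.71 to 3.31 for RNU11 over U5 and 0.98 to 1.47 for RNU12 over U5. It turned RNU12 over RNU4ATAC (-0.054 without cell 1, to 1.40 without cell 2), RNU4ATAC over U5 (-0.077 without cell 2, to 1.26 without cell 1) and RNU6ATAC over U5 (0.35 without cell 1, to -1.50 without cell 2), none of which separated the groups. With 7 libraries no exact p can pass 0.05 (smallest 0.0571 or 0.0952).

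Several uncalled genes changed sign, among them SNORD3B-1 (-0.95) and RNU7-1 (0.57); the cause was not tested. RNVU1-18 was at 0.037 with total counts, 0.067 with upper quartiles, 0.075 without rRNA features, 0.19 with the 50-count filter and -0.57 to 0.76 without 1 library. RNU5E-1 was at 0.27 with total counts, 0.28 with upper quartiles, 0.16 with no filter, 0.35 with the 50-count filter, 0.26 without rRNA features, 0.071 without exosome 5 and cell 2, 0.087 on libraries 1 to 3 and -0.46 to 0.42 without 1 library. Leaving out 1 library gave -0.76 to 0.078 for RNU4-1, -0.10 to 0.77 for TERC, -1.36 to 0.32 for SNORD3B-1, -0.23 to 1.11 for SNORD3A and -0.024 to 0.95 for SNORD3C. SNORD3A was at -0.19 and SNORD3C at -0.015 without exosome 5 and cell 2, and RNU7-1 at -0.45 with the block and -0.051 on libraries 1 to 3. Depth limits RNU6ATAC most, with 11 reads in its lowest library.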
